A study of Rattus norvegicus with 10 samples.

Results

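The genes described here are those of the kisspeptin, neurokinin B and dynorphin system: the peptide genes *Kiss1*, *Tac3* and *Pdyn*, the receptor genes *Kiss1r* and *Tacr3*, and *Gnrh1*. They were matched by gene name, from a list chosen with earlier results of these data known. All 6 had a row in the deposited table of 12828 genes, 12383 of them protein-coding. The table comes from RNA-sequencing of the arcuate nucleus (ARC) of 10 first-time pregnant Wistar dams, taken at parturition and after a daytime fast. Through pregnancy 5 dams received the 5X-FA diet, with folic acid, and 5 received the 5X-MTHF diet, with an equimolar amount of methyltetrahydrofolate as its calcium salt, both at 5X the recommended folate level. The ARC was cut free hand from frozen coronal slices, so that neighbouring tissue could enter the block.

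Neurons of the ARC that make kisspeptin, neurokinin B and dynorphin together are known as KNDy neurons. As background, neurokinin B excites these cells through its receptor, dynorphin inhibits them through the kappa opioid receptor, and kisspeptin released onto gonadotropin-releasing hormone (GnRH) neurons drives the pulses of GnRH that control the pituitary and the ovary. Estradiol, progesterone, prolactin and metabolic hormones act on KNDy neurons, and GnRH pulses are held down during lactation.

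The value used throughout is the authors' average log2 CPM, in which CPM is the read count of a gene scaled to library size, averaged over all libraries. It is a share of reads, not divided by transcript length, so the order below is an order of read share and not of transcripts per cell. It holds both diets together. A further 10 columns, whose names match no label of a dam, were not used here, and neither were the 4 columns of the authors' own comparison. No difference between diets, no spread between dams and no test is therefore given for any gene, and the depth of each library cannot be read from this value. The methods state a single approximate depth for all samples.

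By read share, *Pdyn* stood first of the 6 genes and *Kiss1* last, with an average log2 CPM of 6.61 against 0.08. They were 6.52 log2 units apart, and the quartiles of the whole table were 3.65 and 6.18. *Pdyn* was the only member above the table's median of 4.94, and the other 5 lay below it. Added up, the 6 genes took 143 CPM, of which *Pdyn* held 68.2%. The 3 peptide genes summed to 119 CPM, of which *Pdyn* alone gave 97.4 CPM, and the 2 receptor genes to 21.6 CPM. That receptor sum leaves out *Oprk1*, the gene of the kappa opioid receptor, at 20.0 CPM. Whether neighbours in this order differ beyond the spread between dams was not tested.

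**Figure D1:**
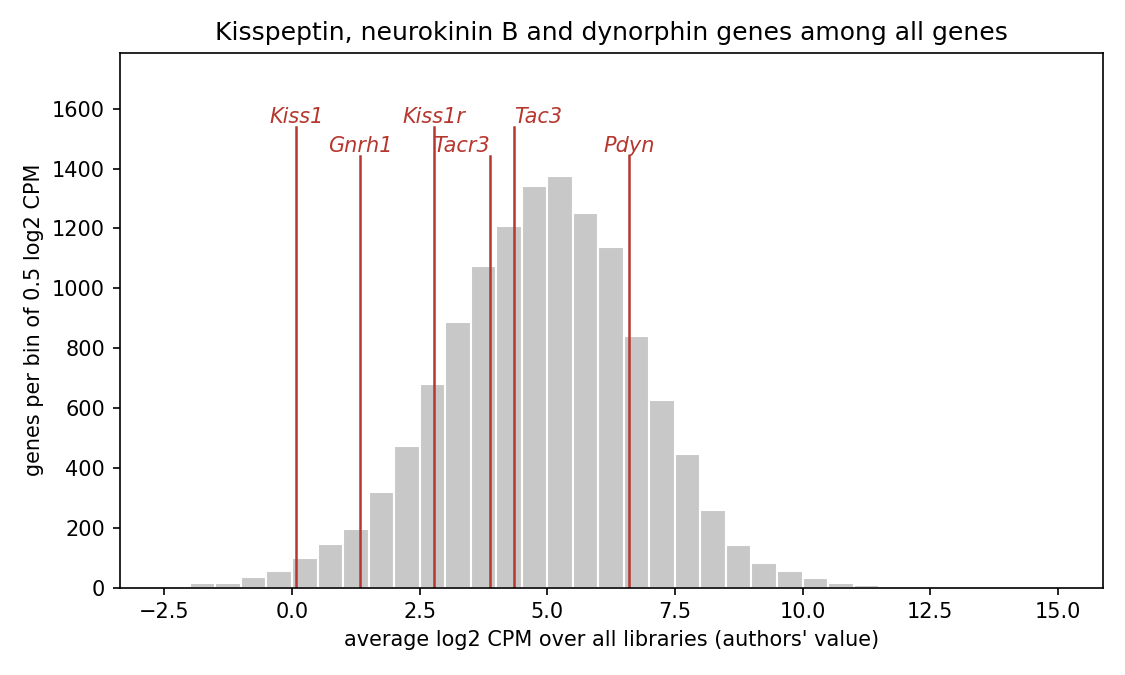
Number of genes (y axis) in bins of the average log2 CPM over all libraries (x axis, log2 scale, authors' value) for the 12828 genes of the table, with a red line at each of the 6 members. *Kiss1* at 0.08 and *Gnrh1* at 1.34 lie in the low tail, and *Pdyn* at 6.61 lies above the median of 4.94.

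*Kiss1* encodes the precursor of the kisspeptins, the ligands of the receptor KISS1R. In Rnor_6.0 it (ENSRNOG00000047481) lies on chromosome 13 from 50529510 to 50535389. Its average log2 CPM of 0.08 amounts to 1.06 CPM, and 136 of the 12828 genes had a lower value, which put it at percentile 1.06. It is thus a gene with few reads behind its value. No other gene of the table overlaps it, and the nearest, *Plekha6*, is 20.1 kb away. *Kiss1* is the one member for which the study designed a qRT-PCR assay, and its forward primer of 23 bases is shown because a second assay reads this gene apart from the sequencing.
Kiss1 forward primer: aactcgttaatgcctggcaaaag

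*Tac3* encodes the precursor of neurokinin B. It (ENSRNOG00000004229) lies on chromosome 7 of Rnor_6.0 from 71023976 to 71030582. Its average log2 CPM was 4.34, or 20.3 CPM, at percentile 37.6. The read share of *Tac3* was 19.2 times that of *Kiss1*, 4.26 log2 units higher, a ratio not corrected for transcript length. The whole gene lies inside the span that the table gives for *Rdh16* (average log2 CPM 2.30), so its value is uncertain where exons of the 2 genes share bases, which the table does not show.

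*Pdyn* encodes prodynorphin, the precursor of the dynorphins. It (ENSRNOG00000026036) lies on chromosome 3 of Rnor_6.0 from 122194329 to 122206671, and 41.9 kb separate it from *Sirpa*, the nearest gene of the table. Its average log2 CPM was 6.61, or 97.4 CPM, at percentile 81.9. The read share of *Pdyn* was 4.79 times that of *Tac3* and 91.8 times that of *Kiss1*. *Pdyn* is also known from striatal, hippocampal and magnocellular neurons, whose markers were present in the table as well. How much each cell type added to its reads was not tested. In such bulk tissue, fewer cells of a type and less RNA per cell cannot be told apart.

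*Tacr3* encodes the receptor of neurokinin B, a G protein-coupled receptor found on KNDy neurons and elsewhere in the brain. It (ENSRNOG00000009372) has the longest span of the members, 97820 bp, on chromosome 2 of Rnor_6.0 from 240021152 to 240118971. Its average log2 CPM was 3.87, or 14.7 CPM, at percentile 28.7, which is 0.47 log2 units under its ligand gene *Tac3*. The nearest gene of the table, *Bdh2*, is 343 kb away.

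*Kiss1r* encodes the kisspeptin receptor, which GnRH neurons carry. It (ENSRNOG00000011954) has the shortest span, 3659 bp, on chromosome 7 of Rnor_6.0 from 12606210 to 12609868. Its average log2 CPM was 2.78, or 6.89 CPM, at percentile 13.5. By these values the receptor gene lay 2.70 log2 units above *Kiss1*, a gene with few reads, whereas *Tacr3* was below *Tac3*. *Kiss1r* lies within the spans of both *Arhgap45* (average log2 CPM 3.05) and *Med16* (5.30) in this annotation, and *R3hdm4* begins 1.6 kb away. Its value, and so its distance from *Kiss1*, is uncertain where exons of these genes share bases, which the table does not show. *Tac3* and *Kiss1r* were the 2 members that overlap other genes of the table, and the other 4 overlap none.

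*Gnrh1* encodes the precursor of GnRH. Cell bodies of GnRH neurons lie mainly in the preoptic area of the rat, in front of the ARC, and their fibres end in the median eminence below it. The gene (ENSRNOG00000013441) lies on chromosome 15 of Rnor_6.0 from 44441856 to 44446064, 2.6 kb from *Kctd9*. Its average log2 CPM was 1.34, or 2.53 CPM, at percentile 3.79, which is 1.25 log2 units above *Kiss1*. With *Kiss1* it formed the low end of the group.

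Genes that act on KNDy neurons were read from a list of 19, of which 16 were in the table and the other 3 were not analysed here. The list had a median average log2 CPM of 5.90, against 4.94 over all genes, and 9 of its 16 genes were above that table median. Genes of general GABA and glutamate transmission headed the list. The hormone and peptide receptor genes named further below all lay under the table median. *Insr*, the insulin receptor gene of the same list, lay above it at 5.82, and was also picked after its value was seen. Its top 3 by read share were *Gabbr1*, a subunit of the GABA-B receptor, at 10.32, and *Gad2* and *Gad1*, the enzymes that make GABA, at 9.67 and 8.79. The further genes of this list given next were chosen after their values were seen, for their place in the circuit. The kappa opioid receptor gene *Oprk1*, the receptor of dynorphin, had an average log2 CPM of 4.32, close to the 4.34 of *Tac3*. The steroid receptor genes *Esr1* (estrogen) and *Pgr* (progesterone) had 4.49 and 3.91. *Prlr*, the prolactin receptor gene, had 2.21, and *Tacr1*, whose product binds substance P, had 2.23. *Ghsr*, the ghrelin receptor gene, was lowest of the list at 1.50, still above *Gnrh1* and *Kiss1*.

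A second list held 15 genes of the GnRH axis or known from kisspeptin neurons, and 9 of them were in the table. Their median was 3.15, under that of all genes. *Nell2*, *Calb2* and *Dlk1* led it with 8.22, 7.43 and 6.28, and *Nell2* and *Calb2* are widely expressed in the brain. *Npvf*, the gene of the RFamide peptide that restrains GnRH release, had an average log2 CPM of 3.15, and its receptor gene *Npffr1* had 1.57, a pair chosen after its values were seen. The receptor genes *Kiss1r*, at 2.78, and *Npffr1*, at 1.57, lay under the table median. Cell bodies of GnRH neurons lie mainly outside the ARC, and which cells gave these reads was not tested.

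**Figure D2:**
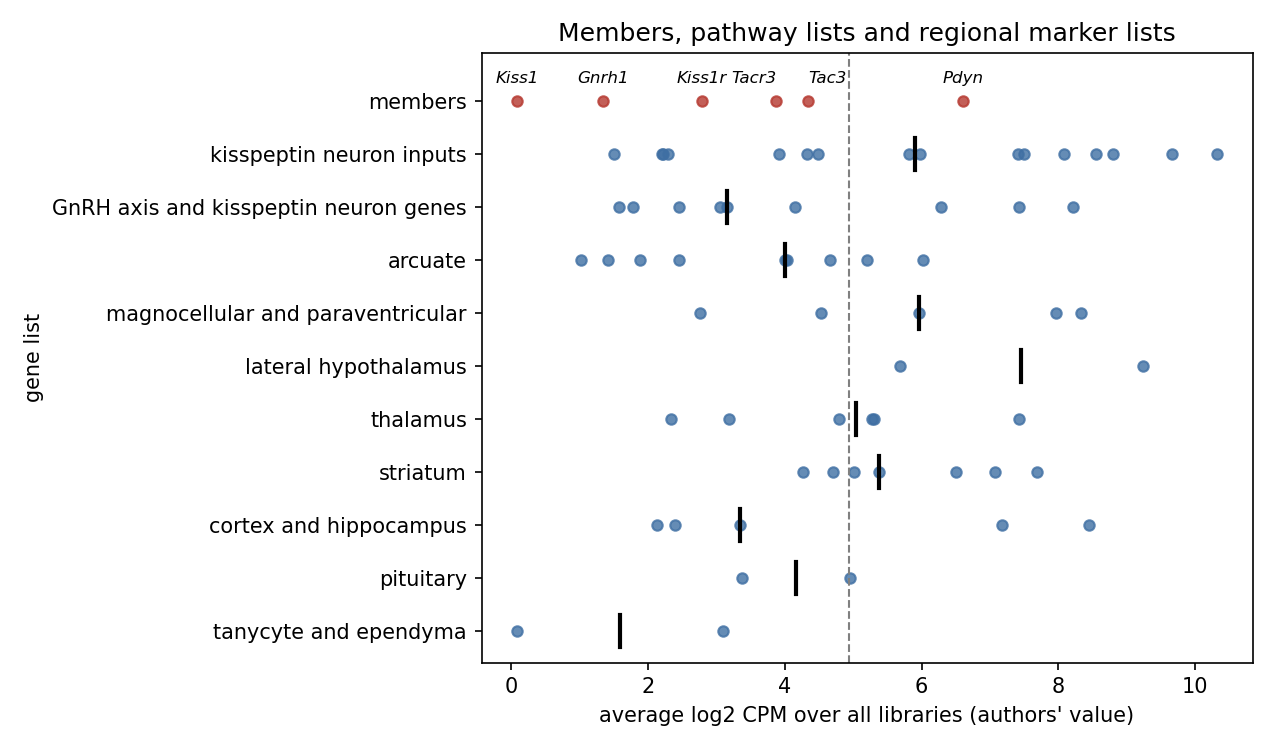
Average log2 CPM over all libraries (x axis, authors' value) of each gene, one point per gene, for the members (red) and for the pathway and regional marker lists (blue), with a black bar at each list's median and a dashed line at the median of all genes, 4.94. *Kiss1* at 0.08 lies beside the lowest point of the lists, *Rax* at 0.08, and *Pdyn* at 6.61 lies above every arcuate marker.

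The labelled region was checked against markers of the ARC. Of 11 such genes 9 were in the table, and *Npy* and *Six6* were not found there by name. Why they were absent was not tested. *Cartpt*, *Th* and *Pomc* led them with an average log2 CPM of 6.02, 5.20 and 4.67, and *Agrp* and *Ghrh*, which few other regions express, had 1.42 and 1.02. The 9 genes summed to 173 CPM. Markers of other regions were present beside them. All 7 striatal markers were in the table, at 549 CPM in sum and between 4.26 and 7.68, all 5 of the magnocellular and paraventricular nuclei at 662 CPM, and 5 of 7 of cortex and hippocampus at 511 CPM. Of the last sum, *Camk2a* gave 347 CPM and *Slc17a7* 144 CPM, whereas *Tbr1*, *Neurod6* and *Neurod2*, which are more restricted to those regions, gave 10.1, 5.27 and 4.38 CPM. The 2 genes of the lateral hypothalamus, *Pmch* and *Hcrt*, summed to 654 CPM. Of 6 thalamic markers all were found (293 CPM), of 5 pituitary markers 2 (41.3 CPM) and of 4 markers of tanycytes and ependyma 2 (9.65 CPM). *Penk*, *Calb2* and *Camk2a* among these are made by hypothalamic neurons too. The arcuate markers *Cartpt* and *Th* are also made outside the ARC, so the sums do not give shares of tissue. On this scale *Kiss1*, at 0.08, was beneath all 9 arcuate markers, the lowest of which was *Ghrh*. *Rax*, a tanycyte gene, had the same value of 0.08.

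The members are spread over 5 chromosomes, with *Tac3* and *Kiss1r* on the same one but far apart. To see what they share in sequence, RefSeq promoter windows on GRCr8, a later build than that of the table, were read from 250 bases before to 50 bases after each gene's start. A window was at hand for *Kiss1*, *Kiss1r*, *Pdyn* and *Tacr3*. The 150 bases before the start are shown for these 4, since folate takes part in methyl group metabolism, and their CpG sites and common promoter motifs are compared below. Capitals mark the letters searched, on both strands. TATAAA is the core of the box at which the basal transcription machinery binds. GGTCA is one arm of an estrogen response element and CGTCA is one arm of a cAMP response element. GGGCGG is the GC box that Sp factors bind.
Kiss1 promoter, chr13:47327009-47327158 (+ strand): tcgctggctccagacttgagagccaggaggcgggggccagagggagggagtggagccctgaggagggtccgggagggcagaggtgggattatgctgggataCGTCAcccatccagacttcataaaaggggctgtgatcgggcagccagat
Tacr3 promoter, chr2:225940347-225940496 (+ strand): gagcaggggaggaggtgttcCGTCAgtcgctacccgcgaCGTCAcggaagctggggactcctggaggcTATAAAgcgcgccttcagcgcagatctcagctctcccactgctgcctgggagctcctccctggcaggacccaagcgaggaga
Pdyn promoter, chr3:137366504-137366653 (- strand): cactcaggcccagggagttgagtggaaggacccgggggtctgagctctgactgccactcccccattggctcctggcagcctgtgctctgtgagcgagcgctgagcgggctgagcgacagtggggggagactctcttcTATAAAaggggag
Kiss1r promoter, chr7:10439425-10439574 (- strand): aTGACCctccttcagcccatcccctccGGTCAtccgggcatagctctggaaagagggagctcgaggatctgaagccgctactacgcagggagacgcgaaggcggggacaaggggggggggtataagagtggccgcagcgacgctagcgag

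All 4 windows held fewer CpG sites than is common for genes of the table. In 300 bases *Kiss1* had 7 CpG sites, *Pdyn* 10, *Tacr3* 12 and *Kiss1r* 16, against a median of 21 over 10622 windows of genes in the table. Their percentiles there were 13.0, 18.7, 23.0 and 33.1. Against all 33465 RefSeq windows, whose median was 7, the same counts lay at percentiles 48.6, 58.5, 62.9 and 69.5, so that the low standing holds only against genes of the table. The GC content of the 4 windows ran from 58.3% in *Pdyn* to 63.0% in *Kiss1r*. DNA methylation was not measured in these samples.

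**Figure D3:**
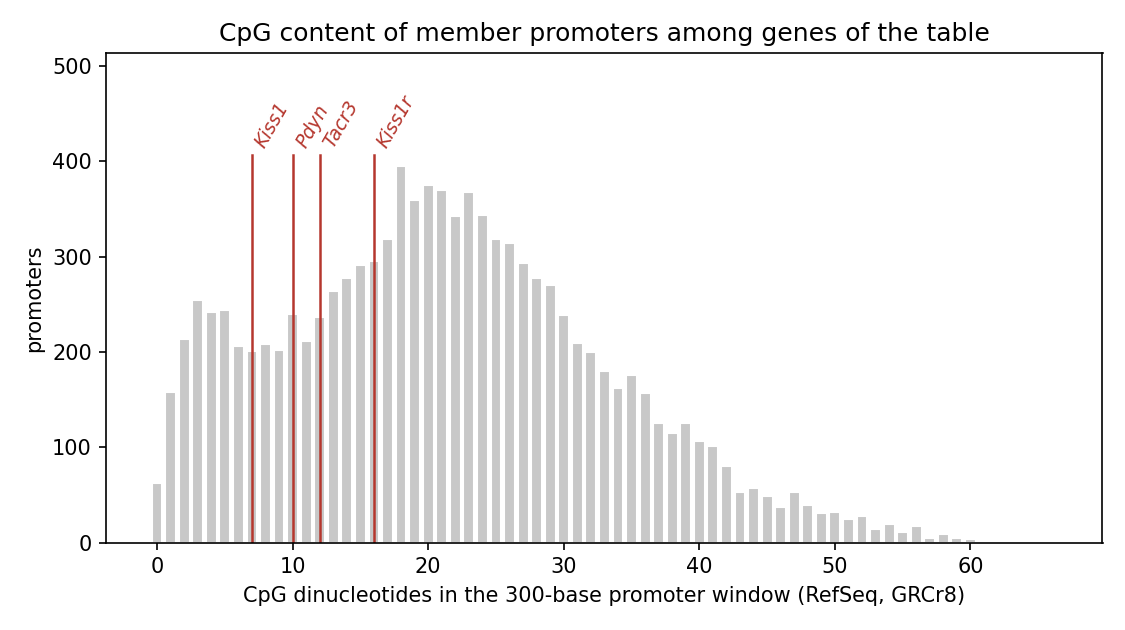
Number of promoter windows (y axis) by CpG sites in the 300-base window (x axis) for the 10622 RefSeq windows whose gene symbol is in the table, with red lines at the 4 members. *Kiss1* with 7, *Pdyn* with 10, *Tacr3* with 12 and *Kiss1r* with 16 all lie under the median of 21.

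Among the motifs, none of the 4 windows held the GC box, which 61.7% of windows of table genes and 33.1% of all windows held. TATAAA was present in *Pdyn*, from 13 to 8 bases before the start, and in *Tacr3*, from 82 to 77 bases before it. It was present in 6.72% of windows of table genes and 14.2% of all windows. Only exact letters were searched, at any position. Near matches such as cataaa in *Kiss1*, tataag in *Kiss1r* and, for the GC box, aggcgg in both were thus not counted. Which of the 4 promoters use either box was not tested. CGTCA was present in *Kiss1*, from 49 to 45 bases before the start, and at 2 places in *Tacr3*, which begin 130 and 111 bases before it, against 30.5% of windows of table genes. GGTCA was present in *Kiss1r* only, once on each strand, the matches starting 149 and 123 bases before the start, against 36.6% of windows of table genes. These are matches of letters in 4 windows, chosen with the sequences in view, and no binding was measured.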

How the data were processed

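ARC RNA of 10 dams, 5 per diet, was sequenced after poly-A selection. Per the labels and the methods, the authors trimmed reads with Trim Galore 0.5.0, aligned them with STAR 2.6.0c to Rnor_6.0 and counted Ensembl genes with HTSeq 0.6.1p2 from libraries they describe as strand specific. The deposited table gives, for each gene, an average log2 CPM over all libraries made by the authors. The methods name a minimum read count per gene and further filtering for the comparison of diets. The name of the deposited table marks it as filtered. By which rule, and how the average was made, is not given in the sources used here. The base of the log was checked from the values: 2 raised to them sums to 1.00 times 1e+06.

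The deposited table also holds 4 columns of the authors' own comparison of diets (log2 fold change, F statistic, p-value and FDR), which were not used, and 10 per-sample columns that match no label and were not used. The tests planned for the diets needed values per dam and were not run. Percentiles are the share of the table's genes with a lower value, so genes that a filter removed do not count in them. The same holds for the table median. Low-value filters at 1 and 4 and a restriction to protein-coding genes were tried as alternatives.

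Members were matched by name. The members and the lists were chosen with earlier results of these data known. Apart from genes absent from the table, 1 further gene was left out of every list count and is not reported here. Named are the members and the 3 highest genes of each pathway list, and other genes are marked as chosen after their values were seen or serve as regional markers. Promoter windows came from RefSeq on GRCr8, matched by symbol (4 of 6 members), and the primer from the study's primer list. The motif search and percentiles were tested on simulated data. The tables were handled with pandas 2.3.3 and scipy 1.17.1 under Python 3.11.15, and plots were drawn with matplotlib 3.10.9.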

Additional observations from a re-analysis of the deposited data

How the results depend on the processing

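The members were also ranked among the 12383 protein-coding genes in place of all genes. A 95% exact binomial interval of each percentile served as a yardstick only. It treats the genes of the table as independent draws and holds no spread between dams, so it is not a test. By it 5 of the 6 members moved, all downward: *Kiss1* to 0.565, *Gnrh1* to 2.58, *Kiss1r* to 11.7, *Tacr3* to 27.0 and *Tac3* to 36.0. *Pdyn* moved within that interval. The order of the members does not depend on this choice. With a filter at an average log2 CPM of at least 1, 5 members were left and *Kiss1* was not among them, and at 4 only *Pdyn* and *Tac3* were left. Of the 11 lists, the filter at 1 cut 1 list by more than 1.5 times and the filter at 4 cut 6.

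No paired analysis was possible because the columns carry no replicate number that can be tied to a dam, and no result comes from a test. For the same reason the fits with other pseudocounts, other normalizations, other tools or without one dam were not run. The methods give 1 approximate depth for all samples and the values used give none per library, so no counting error was computed. Among the members, *Kiss1* and *Gnrh1* rest on the smallest shares of reads.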
